A study of Mus musculus with 12 samples.

Results

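The genes described here are those for the Hsp90 chaperones (Hsp90aa1, Hsp90ab1, Hsp90b1), 3 small heat shock proteins (Hspb1, Hspb8, Cryab), the mitochondrial chaperonin pair (Hspd1, Hspe1) and the heat shock factors Hsf1 and Hsf2, chosen by gene symbol; all 10 were found among the 27179 genes of the count table and all 10 passed the filter on low counts. They were measured by RNA sequencing of epididymal white adipose tissue (eWAT), the fat pad attached to the epididymis, from male C57BL/6J mice on chow. In the epinephrine group 6 mice were injected into the peritoneum with sodium epinephrine at 0.5 mg/kg, and in the vehicle group 6 mice received saline by the same route, both in the morning, with the fat collected 1 h later. No allele or transgene is listed for either group, each library is 1 mouse, and the injection reached the whole animal rather than fat alone. The listed ages ran from 18 to 23 weeks in the epinephrine group and from 12 to 17 weeks in the vehicle group, so listed age and treatment cannot be told apart. In the order of the records these ages rise by 1 week a mouse, from 12 for vehicle 1 to 23 for epinephrine 6. Whether they are the true ages is not known.

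Heat shock proteins are chaperones that bind unfolded or unstable proteins. Hsp90 holds client proteins such as kinases and steroid receptors in a form that can be activated. Small heat shock proteins bind unfolding proteins without using ATP, and the Hspd1 and Hspe1 products form the chamber in which imported proteins fold in mitochondria. Many of these genes carry heat shock elements, arrays of the sequence GAA in alternating orientation, which bind trimers of heat shock factor 1 once chaperones are drawn away from it by unfolded protein. The endoplasmic reticulum (ER) form of Hsp90, encoded by Hsp90b1, is instead known as a target of the unfolded protein response, which acts through the ER stress response element.

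Promoter windows, from 250 bases before to 50 bases after each annotated start, were available in RefSeq (GRCm38.p6) for 6 of the 10 genes: Hsp90b1, Hspb1, Hspb8, Hspd1, Hspe1 and Hsf2. Entries for Hsp90aa1, Hsp90ab1, Cryab and Hsf1 were not used here. The windows of Hspe1, Hspb1, Hspb8 and Hsp90b1 are shown because of the matches they carry, written 5′ to 3′ on the strand of the gene. Hspe1 carries arrays of heat shock units, Hspb1 and Hspb8 only pairs of units, and Hsp90b1 the ER stress response element. Capitals mark heat shock pairs (GAANNTTC or TTCNNGAA) and arrays of 3 such units (GAA, TTC and GAA with 2 bases between neighbours, or TTC, GAA and TTC on the other strand) in the windows of Hspe1, Hspb1 and Hspb8. In the Hsp90b1 window they mark the ER stress response element (CCAAT and CCACG with 9 bases between them, on either strand). The windows are chr1:55087898-55088197 on the plus strand for Hspe1, chr5:135887669-135887968 on the plus strand for Hspb1, chr5:116422815-116423114 on the minus strand for Hspb8 and chr10:86705395-86705694 on the minus strand for Hsp90b1.
Hspe1: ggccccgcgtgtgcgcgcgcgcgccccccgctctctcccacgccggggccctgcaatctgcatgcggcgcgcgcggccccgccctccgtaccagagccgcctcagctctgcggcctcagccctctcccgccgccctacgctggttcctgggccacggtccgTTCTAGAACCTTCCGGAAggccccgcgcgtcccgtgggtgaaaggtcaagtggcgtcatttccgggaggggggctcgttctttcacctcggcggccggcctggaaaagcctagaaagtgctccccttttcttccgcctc
Hspb1: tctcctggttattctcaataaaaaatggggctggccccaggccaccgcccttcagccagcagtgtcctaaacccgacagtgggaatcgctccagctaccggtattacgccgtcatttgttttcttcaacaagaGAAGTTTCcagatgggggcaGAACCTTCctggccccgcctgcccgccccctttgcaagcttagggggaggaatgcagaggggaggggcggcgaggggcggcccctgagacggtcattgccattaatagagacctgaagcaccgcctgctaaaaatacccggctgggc
Hspb8: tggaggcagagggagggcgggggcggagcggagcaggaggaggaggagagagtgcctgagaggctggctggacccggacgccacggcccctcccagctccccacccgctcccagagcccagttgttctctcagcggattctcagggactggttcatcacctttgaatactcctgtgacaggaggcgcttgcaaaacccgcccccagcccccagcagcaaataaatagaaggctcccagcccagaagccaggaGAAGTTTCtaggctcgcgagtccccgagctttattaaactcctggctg
Hsp90b1: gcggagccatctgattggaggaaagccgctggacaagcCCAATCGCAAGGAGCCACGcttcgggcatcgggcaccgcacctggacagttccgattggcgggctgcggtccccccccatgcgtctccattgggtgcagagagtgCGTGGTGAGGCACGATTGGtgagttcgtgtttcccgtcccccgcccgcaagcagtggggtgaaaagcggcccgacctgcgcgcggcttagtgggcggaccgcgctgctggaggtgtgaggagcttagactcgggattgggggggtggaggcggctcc

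The capital run of the Hspe1 window, 18 bases long, begins 89 bases upstream of the start and holds 2 overlapping arrays of 3 units. The same run lies in 1 of the 2 windows of Hspd1, read on the other strand, since the genes are divergent neighbours. Hspb1 has pairs beginning 117 and 97 bases upstream of its start, Hspb8 has 1 pair beginning 2 bases past its annotated start, and the Hspb8 pair has the same 8 bases as the upstream pair of Hspb1. Hsp90b1 has ER stress response elements beginning 212 and 107 bases upstream. Over the 32851 windows of all genes, both strands searched, an array of 3 units was found in 0.603%, either pair in 15.1% (pairs lie inside every array) and the ER stress response element in 0.119%. The cyclic AMP response element TGACGTCA, found in 1.79% of windows, was in none of those of the 6 genes, and the Hsf2 window held no match to any of the motifs. A match describes these letters only.

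The counts summed to between 24821601 and 34405433 reads per library. Adipocyte marker genes were present throughout, with Adipoq, which encodes adiponectin, at 1310 to 3395 CPM (counts per megaread, by TMM-scaled library size) in epinephrine libraries and 1145 to 3363 CPM in vehicle libraries. The libraries also held epididymal transcripts in unequal amounts: 19 epididymis and testis markers summed to between 35.1 and 36132 CPM in the epinephrine group and between 10.5 and 47230 CPM in the vehicle group, with none of the 19 at 0 in every library. Gpx5, a secreted epididymal peroxidase gene, exceeded 0.5% of counts in epinephrine 1, epinephrine 2 and vehicle 2. In this bulk tissue, fewer cells of a type and less RNA per cell cannot be told apart.

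One hour after epinephrine, 6 of the 10 genes were higher and 0 lower (edgeR quasi-likelihood test, adjusted p under 0.05), namely Hsp90aa1, Hsp90ab1, Hspb1, Hspd1, Hspe1 and Hsf1. Over all 16175 genes tested, 2.65% were called higher and 3.58% lower, 6.23% in all. The median log2 fold change of the 10 genes was 0.88, and that of all genes tested was -0.00083. In 5 of the 10 genes every epinephrine library lay above every vehicle library, as it did for 2.04% of all genes, and in 0 of the 10 every epinephrine library lay below, as it did for 2.74% of all genes. All genes split into 428 higher and 579 lower, or 360 higher and 1448 lower when scaled by library size alone, which moved the median of all genes to -0.11. Under that scaling 6 of the 10 were higher, with Hspb8 in place of Hsf1. With the replicate number as a block, 365 genes were lower. Of the 10 genes, 5 were higher without epinephrine 3, 4, 5 or 6 and without vehicle 1 or 6, and 8 without epinephrine 1. Within numbers 1 to 3 alone (3 mice a group), 0 of the 10 genes and 0 of all genes were called by edgeR (1356 of all genes at an unadjusted p under 0.05). Within numbers 4 to 6 alone, also 3 mice a group, 9 of the 10 were higher. The log2 fold changes within numbers 1 to 3 were 2.01 for Hsp90aa1, 0.62 for Hsp90ab1, 2.35 for Hspb1, 1.09 for Hspd1, 1.38 for Hspe1 and 0.32 for Hsf1, so these 6 genes lost the call there while their fold changes lay near those over all libraries.

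**Figure D1:**
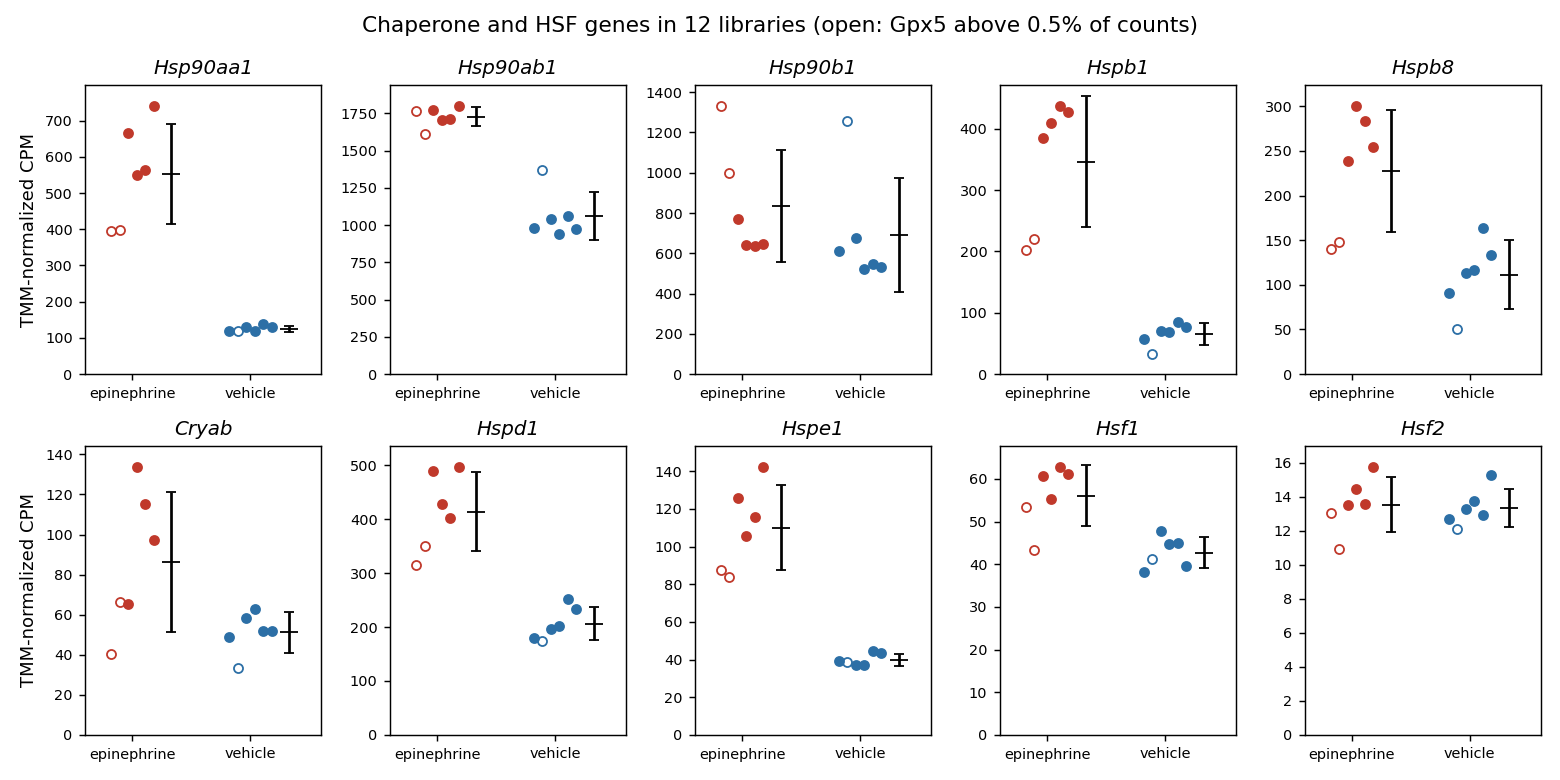
Level of each of the 10 genes in TMM-normalized CPM (vertical axis, from 0) in the 6 epinephrine and 6 vehicle libraries, 1 point per mouse in order of replicate number, with the mean and SD beside each group. Open points are the 3 libraries with Gpx5 above 0.5% of counts. The groups are apart for Hsp90aa1, Hsp90ab1, Hspb1, Hspd1 and Hspe1, and the open points of the epinephrine group are the lowest of their group for Hsp90aa1, Hspb1, Hspb8, Hspd1 and Hspe1.

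The cytosolic Hsp90 genes rose by unequal amounts. Hsp90aa1 (Entrez 15519; GRCm38 chromosome 12, 110690605 to 110702728, minus strand) encodes the stress-inducible alpha form. Its lowest, median and highest levels were 394, 557 and 739 CPM in the epinephrine group, against 118, 124 and 137 CPM in the vehicle group. Every epinephrine library was well above the narrow range of the vehicle libraries, and the lowest in its own group was epinephrine 1. The rise was 4.40-fold (2.14 on the log2 scale, SE 0.16, 95% interval 1.79 to 2.49; edgeR adjusted p = 3.45e-05). Hsp90ab1 (Entrez 15516; chromosome 17, 45567775 to 45573271, minus strand) encodes the constitutive beta form. The lowest, median and highest Hsp90ab1 levels were 1614, 1740 and 1796 CPM in the epinephrine group, against 937, 1011 and 1372 CPM in the vehicle group. The groups did not overlap, and vehicle 2, at 1372 CPM, stood above the other vehicle libraries at 937 to 1060 CPM. The rise was 1.63-fold (0.70 on the log2 scale, SE 0.11; edgeR adjusted p = 0.00266).

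Within each library the Hsp90aa1 count was set against the Hsp90ab1 count, a ratio that does not depend on library scaling. The log2 ratio was -1.68 ± 0.343 with epinephrine and -3.07 ± 0.234 with vehicle (SD, n = 6 each), a difference of 1.39 with all 6 epinephrine libraries above all vehicle libraries (p = 0.00216 by exact two-sided permutation, the smallest that 6 against 6 can give, and 0.00216 when adjusted over 6 ratios). Alpha therefore rose by a larger factor than beta. In mean CPM, beta rose from 1061 to 1727 and alpha from 125 to 552, so beta gained more in amount. Per kilobase of the deposited gene length, Hsp90aa1 made up 16.4% to 26.6% of the cytosolic Hsp90 sum in epinephrine libraries and 7.04% to 10.5% in vehicle libraries. Beta remained the larger part in all 12 libraries. The sum itself was 883 ± 68.4 CPM per kb with epinephrine and 467 ± 63.1 CPM per kb with vehicle (SD, n = 6 each).

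Hsp90b1 (Entrez 22027; chromosome 10, 86690209 to 86705509, minus strand), which encodes the ER form also called GRP94, did not pass the test. Its lowest, median and highest levels were 636, 706 and 1330 CPM in the epinephrine group, against 520, 578 and 1255 CPM in the vehicle group. The groups overlapped, and the 3 libraries with the most Gpx5 were the highest: epinephrine 1 at 1330 CPM, epinephrine 2 at 997 CPM and vehicle 2 at 1255 CPM. The log2 fold change was 0.28 (SE 0.27, 95% interval -0.31 to 0.86; edgeR adjusted p = 0.725), so a rise of up to 1.82-fold lies within the interval. Single libraries moved it, to 0.57 without vehicle 2 (edgeR adjusted p = 0.15) and to 0.095 without epinephrine 1 (edgeR adjusted p = 0.898). With the epididymal score (the mean log2 CPM of the 19 markers) as a covariate it was 0.22 (edgeR adjusted p = 0.439), and without those 3 libraries 0.23 (edgeR adjusted p = 0.203). Within numbers 4 to 6, where the markers summed to 35.1 to 295 CPM with epinephrine and 10.5 to 1297 CPM with vehicle, Hsp90b1 was at 636 to 644 CPM with epinephrine and 520 to 546 CPM with vehicle and passed (log2 fold change 0.26, edgeR adjusted p = 0.0424). The log2 ratio of Hsp90aa1 to Hsp90b1 was -0.58 ± 0.771 with epinephrine and -2.39 ± 0.528 with vehicle (SD, n = 6 each; difference 1.81, p = 0.00216 before and after adjustment, by exact two-sided permutation).

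**Figure D2:**
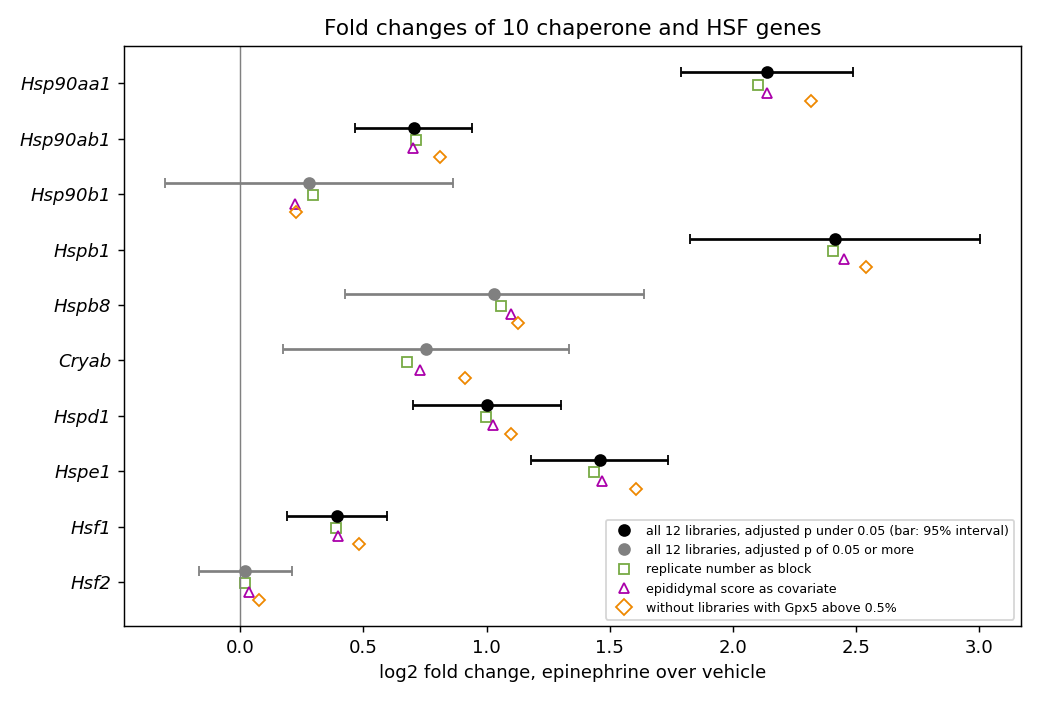
Log2 fold change of the 10 genes, epinephrine over vehicle (horizontal axis), from all 12 libraries with the 95% interval as a bar, and with open symbols for 3 alternatives. Black points passed the test at an adjusted p under 0.05 and grey ones did not. Hspb1 and Hsp90aa1, at 2.41 and 2.14, lie farthest from 0, and the alternatives shown keep the side of 0 of every gene.

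Of the 3 small heat shock protein genes, Hspb1 rose, while Hspb8 and Cryab were higher on average without passing the test over all libraries. Hspb1 (Entrez 15507; chromosome 5, 135887919 to 135889563, plus strand) encodes Hsp25, the mouse counterpart of human HSP27, which binds unfolding proteins and actin filaments. Its lowest, median and highest levels were 202, 397 and 436 CPM in the epinephrine group, against 33.3, 69.0 and 84.8 CPM in the vehicle group. The lowest library of each group was one rich in Gpx5, epinephrine 1 at 202 CPM and vehicle 2 at 33.3 CPM, and the groups did not overlap. The rise was 5.33-fold (2.41 on the log2 scale, SE 0.27, 95% interval 1.83 to 3.00; edgeR adjusted p = 0.00038).

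Hspb8 (Entrez 80888; chromosome 5, 116408491 to 116422864, minus strand) encodes a small heat shock protein that works with the co-chaperone Bag3 in selective autophagy. The lowest, median and highest Hspb8 levels were 140, 247 and 300.0 CPM in the epinephrine group, against 50.6, 115 and 164 CPM in the vehicle group. In 4 of 6 epinephrine libraries it was above every vehicle library, and epinephrine 1 and 2, at 140 and 149 CPM, were within the vehicle range. The difference was 2.04-fold and just missed the threshold (1.03 on the log2 scale, SE 0.28, 95% interval 0.42 to 1.64; edgeR adjusted p = 0.05001). Hspb8 passed in 14 of 27 alternatives and changed sign in 1 other. It passed with the replicate block (edgeR adjusted p = 0.00792), the epididymal score as a covariate (0.00272) and RLE scaling (0.048). Without the 3 libraries rich in Gpx5 it also passed (0.00207). It did not pass with upper quartile scaling (0.0546), within numbers 1 to 3 (0.525) or in 8 of the 12 fits that left out a single library. Across the alternatives its adjusted p lay between 0.00124 and 0.635.

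Cryab (Entrez 12955; chromosome 9, 50751325 to 50756636, plus strand) encodes alpha B-crystallin, abundant in lens and muscle. The lowest, median and highest Cryab levels were 40.2, 81.8 and 134 CPM in the epinephrine group, against 33.1, 51.9 and 62.9 CPM in the vehicle group. In 5 of 6 epinephrine libraries it lay above every vehicle library, the exception being epinephrine 1, and the highest were epinephrine 4, 5 and 6. The test over all libraries did not pass (0.75 on the log2 scale, SE 0.27, 95% interval 0.17 to 1.33; edgeR adjusted p = 0.142). Within numbers 4 to 6 it did (log2 fold change 1.05, edgeR adjusted p = 0.00705), as it did without the 3 libraries rich in Gpx5 (0.91, edgeR adjusted p = 0.0123), without epinephrine 1 alone (0.90, edgeR adjusted p = 0.0273), in DESeq2 (adjusted p = 0.0438) and in limma-voom (weighted samples, adjusted p = 0.0206). Within numbers 1 to 3 the log2 fold change was 0.31 (edgeR adjusted p = 0.881). The Cryab gene model shares 1030 bases with Hspb2 on the opposite strand, and whether the counting kept strands apart is not given in the sources used here; Hspb2 was at 1.81 to 3.27 CPM with epinephrine and 2.09 to 3.14 CPM with vehicle.

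Hspb1 was also set against Cryab and against Hspb8 within each library; Hspb8 and Cryab were not compared with each other. The log2 ratio of Hspb1 to Cryab was 2.05 ± 0.362 with epinephrine and 0.31 ± 0.272 with vehicle, and that of Hspb1 to Hspb8 was 0.60 ± 0.108 with epinephrine and -0.75 ± 0.121 with vehicle (SD, n = 6 each). The differences were 1.73 and 1.35, with all 6 epinephrine libraries above all vehicle libraries in both (p = 0.00216 before and after adjustment for each, by exact two-sided permutation). By count, Hspb1 was above Hspb8 in every epinephrine library and below it in every vehicle library. Their deposited lengths differ, 903 bases for Hspb1 and 1812 for Hspb8, so the order of counts is not an order of levels. Per kilobase of gene length, Hspb1 was above Hspb8 in every library of both groups. Hspb8 and Cryab are also genes of muscle, so muscle markers are given beside them. Skeletal muscle markers (8 genes, 0 higher and 0 lower, 5 tested) summed to 43.2 to 82.2 CPM with epinephrine and 17.3 to 65.8 CPM with vehicle. Acta1 alone was at 34.5 to 69.2 CPM with epinephrine and 5.60 to 51.3 CPM with vehicle (log2 fold change 1.03, edgeR adjusted p = 0.212). The median log2 fold change of the 5 tested was -0.35, and 2 of the 5 were positive, so the higher sum does not describe the list. Smooth muscle and pericyte markers (12 genes, 1 higher and 0 lower, beside 2.65% of all genes called higher) summed to 1201 to 1447 CPM with epinephrine and 924.1 to 1231 CPM with vehicle. The higher gene was Tagln, at 110 to 151 CPM with epinephrine and 72.0 to 109 CPM with vehicle (edgeR adjusted p = 0.0123). The median log2 fold change of these 12 markers was 0.19, and 10 of the 12 were positive. No marker of either list was at 0 in every library, and their part in the changes of Hspb8 and Cryab was not tested.

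**Figure D3:**
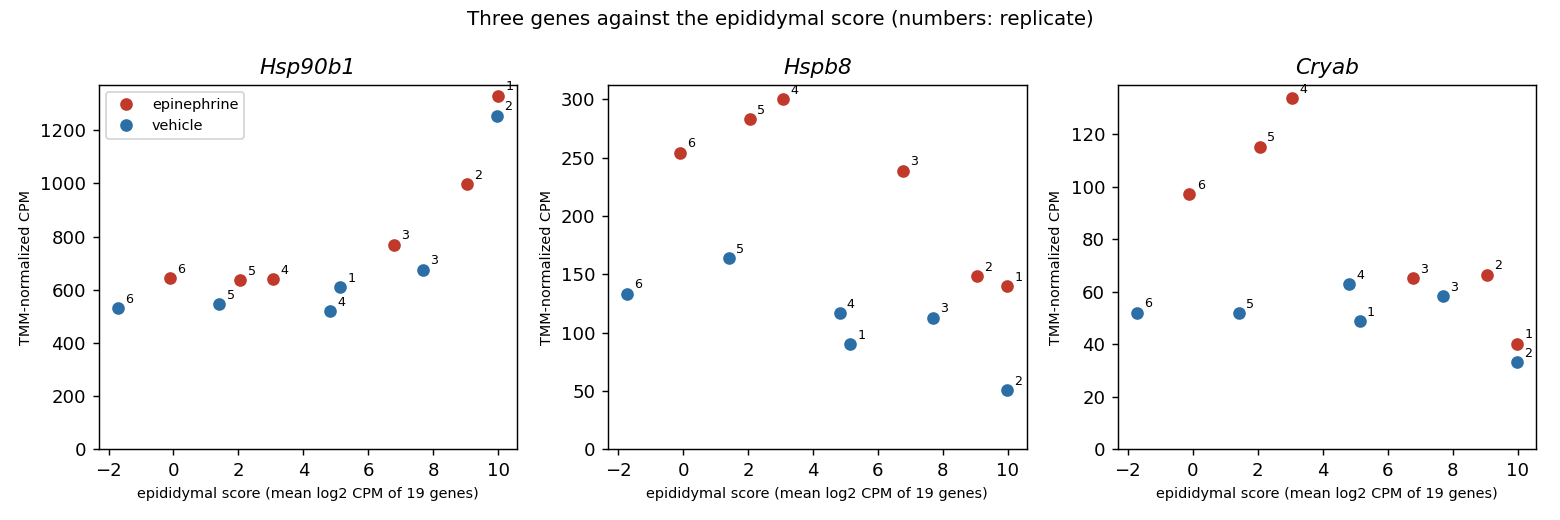
Levels of Hsp90b1, Hspb8 and Cryab in TMM-normalized CPM (vertical axes, from 0) against the epididymal score, the mean log2 CPM of 19 epididymis and testis markers (horizontal axes), 1 point per library with its replicate number. Hsp90b1 was highest in epinephrine 1, epinephrine 2 and vehicle 2, which have the highest scores, and Hspb8 and Cryab were lowest in their group in epinephrine 1 and vehicle 2.

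The genes of the mitochondrial chaperonin rose together, Hspe1 by a larger factor than Hspd1. They lie head to head on chromosome 1, Hspd1 (Entrez 15510) at 55077835 to 55088243 on the minus strand and Hspe1 (Entrez 15528) at 55088132 to 55091307 on the plus strand, with 112 bases in common; the run of heat shock units shown above lies outside those bases, upstream of the Hspe1 start and inside the Hspd1 gene model. Hspd1, which encodes the Hsp60 barrel, had lowest, median and highest levels of 314, 415 and 497 CPM in the epinephrine group, against 175, 199 and 253 CPM in the vehicle group. Hspe1, which encodes the Hsp10 lid, had lowest, median and highest levels of 83.8, 110 and 142 CPM in the epinephrine group, against 37.0, 39.0 and 44.3 CPM in the vehicle group. The groups did not overlap in either gene, and epinephrine 1 and 2 were the lowest of their group in both. Hspd1 rose 2.00-fold (1.00 on the log2 scale, SE 0.14, 95% interval 0.70 to 1.30; edgeR adjusted p = 0.0013) and Hspe1 2.75-fold (1.46 on the log2 scale, SE 0.13, 95% interval 1.18 to 1.74; edgeR adjusted p = 9.15e-05).

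The log2 ratio of Hspd1 to Hspe1 was 1.92 ± 0.116 with epinephrine and 2.36 ± 0.142 with vehicle (SD, n = 6 each; difference -0.44, p = 0.00216 before and after adjustment, by exact two-sided permutation), and all 6 epinephrine libraries lay below all vehicle libraries. RefSeq names 23 pseudogenes after Hspd1 and 7 after Hspe1; 0 of them are rows of the count table, and how reads that match several places were counted is not given in the sources used here. Within the epinephrine group the log2 CPM of the pair varied together, with r = 0.922 (exact permutation p = 0.0181, adjusted p = 0.0667 over 6 relations) and rho = 0.886 (exact permutation p = 0.0333, adjusted p = 0.2), and r = 0.892 without the 2 libraries farthest from the median. In the vehicle group r was 0.773 (exact permutation p = 0.0792, adjusted p = 0.121) and rho 0.543 (exact permutation p = 0.297, adjusted p = 0.446), and r was -0.959 without the 2 farthest libraries, so the relation there rests on those 2 libraries. None of the relations passed after adjustment. Hsp90aa1 and Hsp90ab1 gave r = 0.597 and rho = 0.657 with epinephrine (exact permutation p = 0.192 and 0.175, adjusted p = 0.23 and 0.35; r = 0.998 without the 2 farthest) and r = -0.155 and rho = 0.143 with vehicle (exact permutation p = 0.89 and 0.803, adjusted p = 0.89 and 0.803; r = -0.287 without the 2 farthest). Hspb1 and Cryab gave r = 0.825 and rho = 0.771 with epinephrine (exact permutation p = 0.0222 and 0.103, adjusted p = 0.0667 and 0.308; r = 0.682 without the 2 farthest) and r = 0.847 and rho = 0.429 with vehicle (exact permutation p = 0.0806 and 0.419, adjusted p = 0.121 and 0.503; r = 0.387 without the 2 farthest, on which the relation with vehicle therefore rests).

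**Figure D4:**
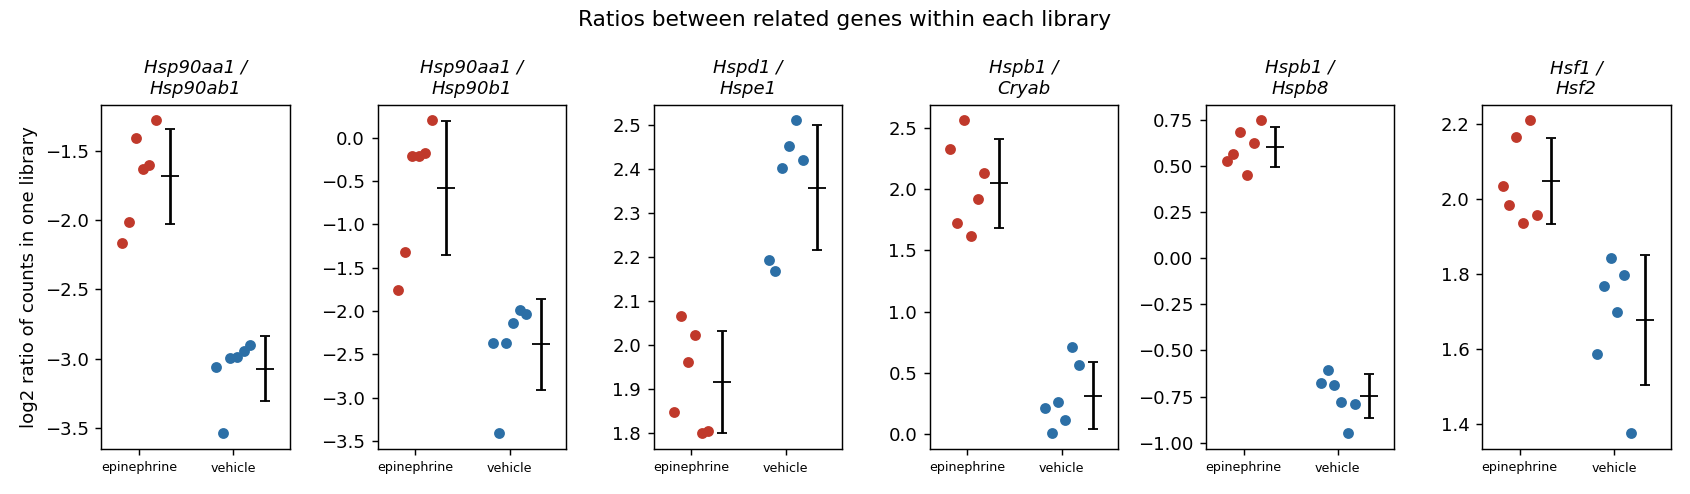
Log2 ratio of the counts of 2 related genes within each library (vertical axes, a separate scale for each pair), with 6 epinephrine and 6 vehicle libraries and the mean and SD beside each group. The groups do not overlap in any of the 6 ratios, and the Hspd1 to Hspe1 ratio is the one that is lower with epinephrine. Hsp90aa1 and Hspb1 were already apart between the groups on their own. Ratios of other gene pairs were not examined, so how often a ratio parts the groups is not known.

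Of the heat shock factor genes, Hsf1 rose slightly and Hsf2 did not pass the test. Hsf1 (Entrez 15499; chromosome 15, 76477422 to 76501913, plus strand) encodes the main activator of heat shock genes, which is itself controlled largely after translation. The lowest, median and highest Hsf1 levels were 43.3, 58.0 and 62.8 CPM in the epinephrine group, against 38.1, 42.9 and 47.7 CPM in the vehicle group. In 5 of 6 epinephrine libraries it lay above every vehicle library, the exception being epinephrine 2 at 43.3 CPM. The rise was 1.31-fold (0.39 on the log2 scale, SE 0.09, 95% interval 0.19 to 0.60; edgeR adjusted p = 0.0285). This call ended without epinephrine 3, 4, 5 or 6 and without vehicle 1 or 6, with edgeR adjusted p between 0.0639 and 0.0723. It also ended with upper quartile scaling (edgeR adjusted p = 0.052), library-size scaling (0.066), listed age as a covariate (log2 fold change 0.13, edgeR adjusted p = 0.575) and within numbers 1 to 3 (0.32, edgeR adjusted p = 0.7).

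Hsf2 (Entrez 15500; chromosome 10, 57486385 to 57513135, plus strand) encodes a related factor that can form mixed trimers with the Hsf1 product. Its lowest, median and highest levels were 10.9, 13.5 and 15.7 CPM in the epinephrine group, against 12.1, 13.1 and 15.3 CPM in the vehicle group. The groups overlapped almost wholly. The log2 fold change was 0.02 (SE 0.09, 95% interval -0.17 to 0.21; edgeR adjusted p = 0.961), so the interval runs from 0.89-fold to 1.16-fold, and its sign depended on the scaling (-0.0144 with upper quartile and -0.087 with library-size scaling). The log2 ratio of Hsf1 to Hsf2 was 2.05 ± 0.114 with epinephrine and 1.68 ± 0.173 with vehicle (SD, n = 6 each; difference 0.37, p = 0.00216 before and after adjustment, by exact two-sided permutation), with all 6 epinephrine libraries above all vehicle libraries.

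Set against each other as levels per kilobase of gene length, the 10 genes spanned a wide range. With epinephrine the order was Hsp90ab1 (689 ± 26.4 CPM per kb), Hspb1 (384 ± 118), Hsp90b1 (303 ± 101), Hsp90aa1 (194 ± 48.8), Hspd1 (177 ± 31.3), Hspe1 (143 ± 29.3), Hspb8 (126 ± 37.5), Cryab (72.8 ± 29.6), Hsf1 (27.8 ± 3.59) and Hsf2 (5.16 ± 0.609; SD, n = 6 each). With vehicle it was Hsp90ab1 (423 ± 63.6 CPM per kb), Hsp90b1 (249.997 ± 103), Hspd1 (88.5 ± 13.2), Hspb1 (72.0 ± 20.1), Hspb8 (61.4 ± 21.2), Hspe1 (52.1 ± 4.16), Hsp90aa1 (44.0 ± 2.95), Cryab (43.2 ± 8.60), Hsf1 (21.2 ± 1.80) and Hsf2 (5.08 ± 0.423; SD, n = 6 each). Hspb1 stood above Hsp90b1 and Hspd1 with epinephrine and below both with vehicle, and Hsp90aa1 stood above Hspd1, Hspe1 and Hspb8 with epinephrine and below all of them with vehicle. Neighbours whose means differed by less than the larger of their SDs were Hspb1 and Hsp90b1, Hsp90aa1 and Hspd1, and Hspe1 and Hspb8 with epinephrine. With vehicle they were Hspd1 and Hspb1, Hspb1 and Hspb8, Hspb8 and Hspe1, and Hsp90aa1 and Cryab.

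**Figure D5:**
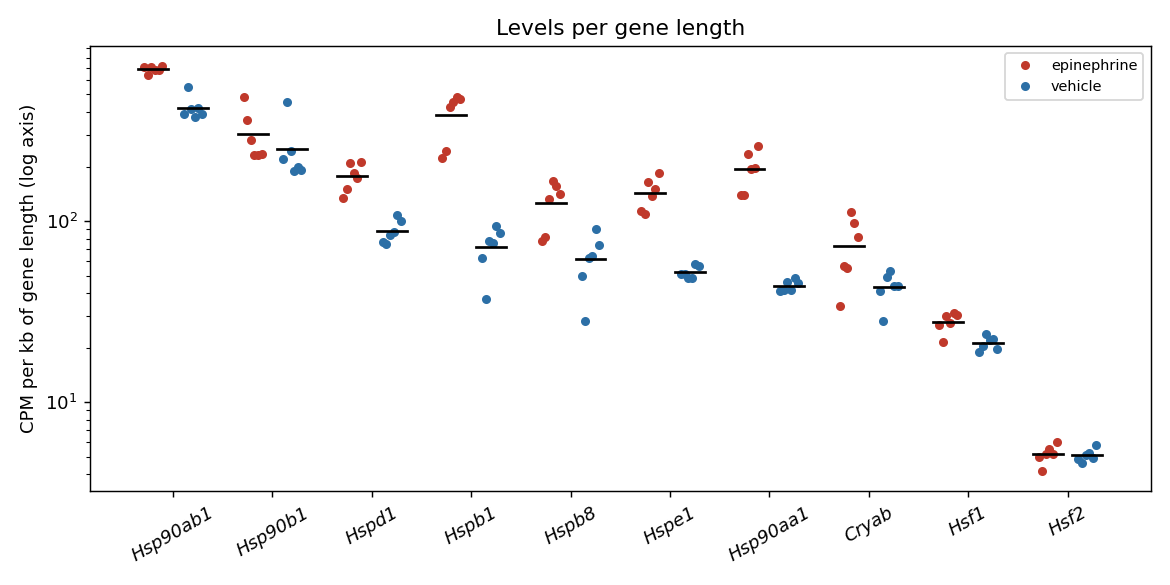
TMM-normalized CPM per kilobase of deposited gene length (vertical axis, log scale) for the 10 genes in the order of their vehicle means, with 1 point per library and a line at each group mean. Hsp90ab1 is highest and Hsf2 lowest in both groups, and the group means lie farthest apart for Hspb1 and Hsp90aa1.

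Other genes of the chaperone network are given for comparison, from lists chosen by function with earlier results of these data known. Of all genes tested, 2.65% were called higher and 3.58% lower. Known targets of heat shock factor 1 outside the 10 genes were 13 higher and 0 lower of 16, with a median log2 fold change of 1.02, against -0.00083 for all genes tested. Those with the smallest p were Hspa1b, Hspa1a, Hsph1 and Dnajb1, all of the Hsp70 system. Hspa1a and Hspa1b are near-identical copies whose reads may be split between them, so their separate values are uncertain. Hsph1, an Hsp110 nucleotide exchange factor gene, was at 316 to 731 CPM with epinephrine and 38.1 to 53.0 CPM with vehicle (3.60 on the log2 scale, SE 0.21, edgeR adjusted p = 4.74e-06). Serpinh1, Ubb and Fkbp4 were the 3 that did not pass, at log2 fold changes of 0.89, 0.38 and 0.22. Of 14 genes of this list with a promoter window, 2 held an array of 3 heat shock units, Hsph1 and Chordc1, and 7 held either pair. Hsp90 co-chaperone genes were 5 higher and 0 lower of 21 tested, with a median of 0.04. The 5 were Unc45a, a myosin and Hsp90 chaperone (0.79 on the log2 scale, SE 0.10, edgeR adjusted p = 0.000699), Stip1, which links Hsp70 to Hsp90 (0.57), Chordc1 (0.33), Ptges3, the p23 co-chaperone (0.27), and Ahsa1, an activator of the Hsp90 ATPase (0.26, edgeR adjusted p = 0.0425). The calls of Ahsa1 and Chordc1 were near the threshold, and that of Ahsa1 ended in 14 of 27 alternatives and changed sign in 1 other; that of Ptges3 ended in 5 of 27. Chordc1, Stip1, Ahsa1 and Fkbp4 stand in both lists.

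With 2.65% of all genes called higher and 3.58% lower, 1 call in a short list says little about that list. Of the other small heat shock protein, Hsp90 and heat shock factor genes, 1 was higher and 0 lower of 9 tested, with a median of 0.03. It was Hspb7, a small heat shock protein gene of heart and muscle, at 14.4 to 42.9 CPM with epinephrine and 9.18 to 12.0 CPM with vehicle (1.18 on the log2 scale, SE 0.23, edgeR adjusted p = 0.011), with all 6 epinephrine libraries above all vehicle libraries. The Hspb7 call ended with listed age as a covariate (0.38, edgeR adjusted p = 0.505) and within numbers 1 to 3 (0.81, edgeR adjusted p = 0.339). Hspb6 had a log2 fold change of 0.27 (edgeR adjusted p = 0.198), and Trap1, the mitochondrial Hsp90 gene, of 0.02 (edgeR adjusted p = 0.981). ER chaperone and unfolded protein response genes are the group to which Hsp90b1 is related. They were 1 higher and 0 lower of 20, with a median of 0.20, beside 2.65% of all genes called higher. The higher gene was Dnajb9, an ER Hsp40 gene (log2 fold change 0.72, edgeR adjusted p = 0.0188). This call ended without vehicle 4 (0.67, edgeR adjusted p = 0.056) and within numbers 1 to 3 (0.75, edgeR adjusted p = 0.413). Edem1, which acts in the disposal of misfolded ER glycoproteins, had a log2 fold change of 0.32 (edgeR adjusted p = 0.259) and passed in 2 of 27 alternatives, and Hspa5, the ER Hsp70 gene, had lowest, median and highest levels of 880, 992 and 1669 CPM with epinephrine and 528, 638 and 1328 CPM with vehicle (log2 fold change 0.57, edgeR adjusted p = 0.256). As for Hsp90b1, the highest Hspa5 levels were in the 3 libraries rich in Gpx5, epinephrine 1 at 1669 CPM, epinephrine 2 at 1242 CPM and vehicle 2 at 1328 CPM. Hspa5 passed without vehicle 2 (log2 fold change 0.84, edgeR adjusted p = 0.0233), without all 3 of those libraries (0.58, edgeR adjusted p = 0.0112), within numbers 4 to 6 (0.65, edgeR adjusted p = 0.00589), with listed age as a covariate (1.64, edgeR adjusted p = 0.00982) and in limma-voom (0.61, adjusted p = 0.0125). Mitochondrial chaperones and proteases were 0 higher and 0 lower of 14, with a median of -0.01; Grpel2, which has the smallest p of them, had a log2 fold change of -0.36 (edgeR adjusted p = 0.24). Grpel2 was called lower without epinephrine 1 (-0.49, edgeR adjusted p = 0.0364), without the 3 libraries rich in Gpx5 (-0.52, edgeR adjusted p = 0.00394) and in 3 other alternatives. Beside these, Hspd1 and Hspe1 had edgeR adjusted p-values of 0.0013 and 9.15e-05.

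Across the 12 libraries the 3 genes whose log2 CPM followed Hsp90aa1 most closely, among 13258 compared, were Hsph1 (Pearson r = 0.996), Hspe1 (0.996) and Dnajb1 (0.994), and those closest to Hspb1 were Unc45a (0.995), Slc25a25 (0.994) and Sik1 (0.993). These values describe the libraries and include the difference between the groups.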

How the data were processed

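Per the labels' protocols, total RNA of 12 eWAT samples went through the SMARTER mRNA-Seq kit. Build mm10 (GRCm38) stands in the submitters' processing notes, which list HISAT2, featureCounts, DESeq2, cutadapt and FastQC; the strand setting is not given in the sources used here, nor is the annotation. The authors deposited whole-number read counts per gene, not normalized, with gene lengths in bases, and a table of variance-stabilized values on a log2-like scale, used in 1 alternative. Columns were matched to mice by the labels.

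Genes kept by filterByExpr (at least 10 reads, and 15 in total) were normalized by TMM and tested across all 16175 genes with edgeR 4.0.16 (glmQLFit, robust, and glmQLFTest; R 4.3.3, limma 3.58.1, DESeq2 1.42.0), with Benjamini-Hochberg adjustment over all genes and a threshold of 0.05; the fit was tested on simulated data. A standard error is the log2 fold change over the square root of F. CPM (counts per megaread) were TMM-normalized, log2 CPM used a prior count of 1, and CPM were divided by deposited length for levels per kb. Ratios added 0.5 to each count and were compared by exact permutation of the group labels. Positions are from GENCODE M21 and promoters from RefSeq, both GRCm38. The labels call the mice biological replicates.

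The titles give replicate numbers. In each of the 6 pairs sharing a number, deviations from the group means correlated across genes (0.262 to 0.799), and the number was also fitted as a block. Libraries with unlike numbers were not compared, so these values do not show that a number marks a pair of mice or a batch. The epididymal score also fell from number 2 to number 6 in both groups. The genes, lists and ratios were chosen with earlier results of these data known. Named genes are all 10, and from each list up to 4 with the smallest p and an unadjusted p under 0.05; further names come from counts of at most 5 or from marker lists. Serpinh1, Ubb, Fkbp4 and Trap1 were chosen after their values were seen. The alternatives were other scalings, filters, tests, covariates and subsets of the libraries.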

Additional observations from a re-analysis of the deposited data

Results flagged for a closer look

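In 60 groups of 6 values examined, 8 values stood farther from the rest of their group than Dixon's 95% limit allows; chance alone gives about 5% of groups. Vehicle 2, the vehicle library with the most Gpx5, held 6 of the 8. There Hsp90ab1 reached 1372 CPM, while the remaining vehicle libraries had 937 to 1060 CPM, and Hsp90b1 was at 1255 CPM against 520 to 676 CPM. Hspa5 was at 1328 CPM against 528 to 771 CPM, and Dnajb9 at 97.2 CPM against 52.2 to 68.4 CPM. The log2 ratio of Hsp90aa1 to Hsp90ab1 was -3.54 in vehicle 2 against -3.06 to -2.91, and that of Hsp90aa1 to Hsp90b1 was -3.41 against -2.37 to -1.99. Elsewhere, Dnajb1 was at 38.1 CPM in vehicle 4 against 48.4 to 51.3 CPM, and Hsph1 was at 53.0 CPM in vehicle 5 against 38.1 to 43.5 CPM.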

How the results depend on the processing

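The rises of Hsp90aa1, Hsp90ab1, Hspb1 and Hspe1 kept their call in 26 of 27 alternatives and that of Hspd1 in 25; numbers 1 to 3 alone ended all 5 at log2 fold changes of 0.62 to 2.35, and listed age as a covariate that of Hspd1 (0.38, adjusted p = 0.134). With listed age the log2 fold change was 1.53 for Hsp90aa1, 1.18 for Hspb1 and 0.93 for Hspe1, against 2.14, 2.41 and 1.46 without it. Listed age follows group and number without overlap, so that fit extends a trend to ages the groups do not share; it gave log2 fold changes of -0.25 for Hspb8, -0.33 for Cryab, -0.33 for Hsf2, -0.0026 for Hspb6, -0.0212 for Ahsa1, -0.29 for Edem1 and 0.24 for Grpel2, opposite to the main values, and called Hsp90b1 higher (1.41, edgeR adjusted p = 0.0237). Hsf2 also changed sign with upper quartile (-0.0144) and library-size scaling (-0.087), in numbers 1 to 3 (-0.0088) and without epinephrine 6 (-0.0289), and leaving out single libraries gave -0.0289 to 0.0753. Of the 10 genes, between 5 and 8 were higher, and none lower, when single libraries were left out; numbers 1 to 3 alone gave 0. The replicate block gave 7, adding Hspb8 (adjusted p = 0.00792), and changed no other call of the 10. All 6 ratios kept direction and call in every alternative run, including the paired sign-flip test within numbers (exact p = 0.0312, the smallest it can give).

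Counts of all genes, higher and lower, were 2339 and 1528 with listed age, 648 and 963 with the epididymal score, 786 and 1028 without the Gpx5-rich libraries, 0 and 0 in numbers 1 to 3, 759 and 884 in DESeq2, 1026 and 1503 in limma-voom and 228 and 185 at a threshold of 0.01. There were 696 higher in numbers 4 to 6, 1448 lower with library-size scaling and 365 lower with the replicate block. Leaving out single libraries gave 276 (without vehicle 4) to 797 (without epinephrine 1) lower genes; it was also over 1.5 times below the full count without epinephrine 3, 4 or 5 and without vehicle 1 or 3. Genes of the comparison lists were 17 higher and 0 lower of 75 tested in the main fit, beside 2.65% higher and 3.58% lower of all genes. With listed age 27 of them were higher, in numbers 1 to 3 0, and at 0.01 10. Lower ones numbered 4 with library-size scaling, 5 with listed age, and 1 each with the score, without the Gpx5-rich libraries, in numbers 4 to 6 and in limma-voom; leaving out single libraries gave 0 to 1. The causes of these shifts were not tested. The p-values over all libraries rest on 6 mice a group. Those from subsets of the libraries rest on fewer, with 3 mice a group within numbers 1 to 3 or 4 to 6.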
